A study of Saccharomyces cerevisiae with 17 samples.

Results

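Listed peaks of dimethylated and of trimethylated lysine 4 of histone H3 (H3K4me2 and H3K4me3) were compared gene by gene in budding yeast with wild-type Cps25. A gene was called marked if a listed peak shared at least 1 bp with the opening 500 bp of the ORF (with all of it in shorter ORFs). Genes were left out if cells lacking SET1 had a peak between 500 bp before and 1000 bp after the start codon. This kept 5121 of 6002 nuclear protein-coding ORFs and left out 881.

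The series profiled H3K4 methylation in Saccharomyces cerevisiae of the strain BY4741A by chromatin immunoprecipitation and sequencing, in 17 samples that fall into 9 groups. All cultures were in exponential growth in YPD, a rich glucose medium, and were fixed with formaldehyde. The 2 lists compared were H3K4me2 and H3K4me3 of the genotype labelled cps25_WT, each from replicate 1 of 2 and each precipitated with its own homemade rabbit polyclonal antibody. The lists of the same antibodies in the set1 deletion, again replicate 1, served only to leave genes out, and the other 13 samples were not analysed here. Genotypes cannot be read from peak lists, and the absence of set1 deletion peaks at the start of SET1 checks nothing, since that gene is deleted there.

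Set1 is the catalytic subunit of COMPASS, the complex that places methyl groups on H3 lysine 4 in this yeast, and Cps25, encoded by SDC1, is its subunit related to mammalian Dpy-30. COMPASS is recruited with RNA polymerase II through the Paf1 complex and needs ubiquitylated H2B. Trimethylation is known from the 5′ ends of transcribed genes and dimethylation from the stretch that follows. Readers with PHD fingers and related domains bind these marks, among them the Set3 deacetylase complex, which binds H3K4me2, and the NuA3 and NuA4 acetyltransferases.

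The H3K4me2 list held 4393 peaks and the H3K4me3 list 4087, called in 1 library each. With 1 list per antibody there was no spread between replicates, so no test was possible and every difference describes these 2 libraries. Intervals after a share or a median are 95% intervals over genes, exact (Clopper-Pearson) for shares and from order statistics for medians. They cover counting error only, and genes that lie under 1 peak are not independent. A list says where enrichment was called, in a bulk culture, and not how much of the histone carried the mark or in how many cells. The score of a peak is the authors' own, without a stated scale, and is given as a percentile, its rank within its own list on a scale of 0 to 100. Read depth is unknown, and the part of depth and of the antibodies in the position of a peak edge cannot be told apart from that of the mark.

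Nearly every gene with H3K4me3 also had H3K4me2, and the reverse held less often. Both marks were listed at 3707 of the 5121 genes (72.4%, 71.1 to 73.6), H3K4me2 alone at 428 (8.36%, 7.61 to 9.15) and H3K4me3 alone at 7 (0.137%, 0.055 to 0.281). Neither mark was listed at 979 genes (19.1%, 18.05 to 20.2). The small classes depended on the number of peaks used: with the upper 50% of each list by score, H3K4me3 alone stood at 167 genes, and with as many H3K4me2 as H3K4me3 peaks, H3K4me2 alone stood at 257. In all, 80.7% of genes carried H3K4me2 and 72.5% carried H3K4me3, and H3K4me3 was present at 89.6% of the genes with H3K4me2. The 881 genes left out near set1 deletion peaks had another makeup, with 268 under both marks, 103 under H3K4me2 alone, 144 under H3K4me3 alone and 366 under neither. The authors had taken set1 deletion peaks out of each wild-type list, so a mark absent at those genes may have been removed with them.

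The presence of H3K4me3 followed the rank of the H3K4me2 peak, while the reverse relation was flat. In the lowest decile of the H3K4me2 list by score, 14 of 269 genes also had H3K4me3 (5.20%, 2.87 to 8.58), and in the next decile 217 of 351 did (61.8%, 56.5 to 66.9). In the 3rd decile the share was 96.0%, and in each decile above it at least 98.3%. Among genes with H3K4me3, at least 99.1% had H3K4me2 in every decile of the H3K4me3 list. The median width of the H3K4me2 peaks was 365 bp in the lowest decile and 827 bp in the highest, and H3K4me3 peaks had 265 bp and 808 bp.

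**Figure D1:**
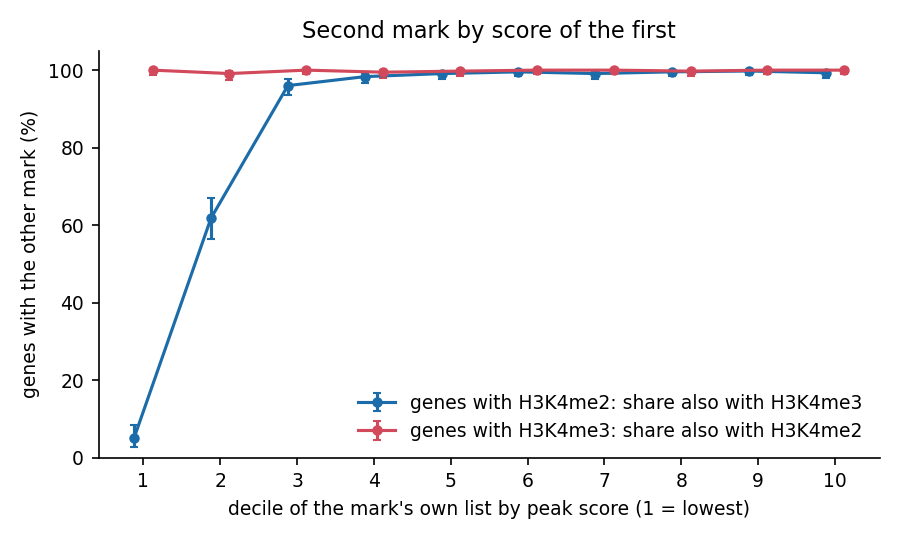
The x axis gives the decile of a mark's own list by peak score, from lowest to highest, and the y axis the percentage of genes with that mark that also had the other one; bars are exact 95% intervals over genes. The H3K4me2 curve lies at 5.20% and 61.8% in the first pair of deciles and at 96.0% or more from the 3rd on, while the H3K4me3 curve stays at or above 99.1%.

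Where both marks were present their peaks lay over the start codon. The H3K4me2 peaks of the 3707 genes had a median width of 725 bp and a median score percentile of 58.5, against 610 bp and 52.2 for H3K4me3. The H3K4me2 peak covered the start codon itself at 97.9% of these genes and the H3K4me3 peak at 93.6%. In the step from 100 to 150 bp into the ORF 99.0% of the bases lay under an H3K4me2 peak and 97.6% under an H3K4me3 peak. Between 500 and 550 bp the shares were 70.5% and 42.2%, and between 600 and 650 bp they were 37.9% and 20.02%. Upstream, coverage dropped to 35.2% for H3K4me2 and 25.99% for H3K4me3 between 200 and 150 bp before the start codon.

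**Figure D2:**
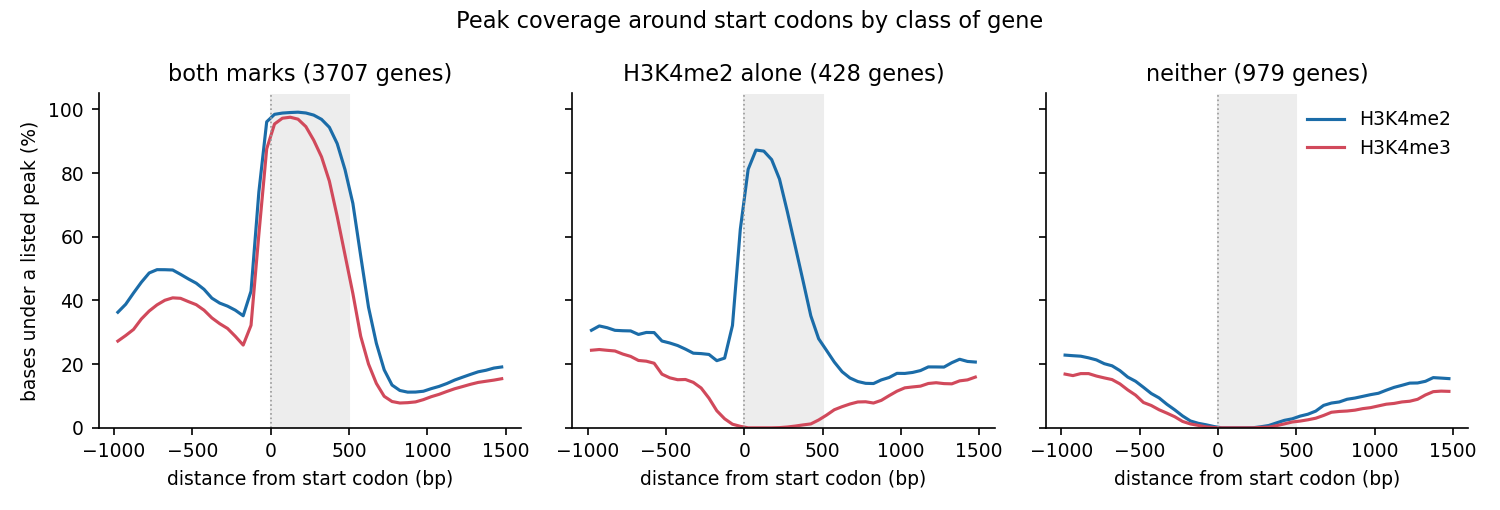
Each panel shows 1 class of gene, with the distance from the start codon in bp on the x axis, read along the gene, and the percentage of bases under a listed peak on the y axis, in steps of 50 bp; the grey band is the 500 bp in which a gene was called marked. At genes with both marks 70.5% of bases lay under H3K4me2 and 42.2% under H3K4me3 just past the band. Coverage inside the band follows in part from the class rule. At genes with H3K4me2 alone H3K4me2 reached 87.2% there, and the rule itself keeps H3K4me3 at 0 near the start codon.

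H3K4me3 without H3K4me2 was listed at 7 genes, all with the peak over the start codon. TIP41, a regulator in TOR signalling (YPR040W, chromosome XVI, 647305 to 648375 in sacCer3), had the highest H3K4me3 score of these, at percentile 78.5, with a peak from 81 bp before to 499 bp after the start codon. VPH2, an assembly factor of the vacuolar proton pump, stood at percentile 47.1. MMS21, the SUMO ligase of the Smc5-Smc6 complex, stood at 33.5, and CTF8, a subunit of the clamp loader for sister chromatid cohesion, at 16.5. At these 4 genes a number in the running names of the H3K4me2 peaks was skipped nearby, so an H3K4me2 peak may have been called there and then removed with the set1 deletion peaks.

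The remaining 3 genes with H3K4me3 alone encode translation factors that have a near-identical copy, and no H3K4me2 number was skipped near them. EFT1, translation elongation factor 2, had an H3K4me3 peak at percentile 34.6 that ended 45 bp after the start codon. TIF1 and TIF2, both of which encode the helicase eIF4A, had H3K4me3 peaks at percentiles 17.9 and 17.2 that ended 31 and 36 bp after the start codon. These 3 peaks thus covered little more than the upstream side of the start codon. Reads from within such copies cannot be assigned to one of them with certainty, so what lay further into these ORFs is uncertain.

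H3K4me2 without H3K4me3 was, at most genes, a short peak of low rank. The peaks at the 428 genes had a median width of 426.5 bp and a median score percentile of 8.64 (quartiles 4.52 and 12.3), and 12 genes stood above percentile 50. They ran from a median of 43 bp before to 361 bp after the start codon and covered it at 322 genes (75.2%). At 387 of the 428 genes the H3K4me2 peak overlapped no H3K4me3 peak at all, and these had a median percentile of 7.67 and a width of 408 bp. At the other 41 genes the H3K4me2 peak overlapped an H3K4me3 peak outside the tested stretch, with a median percentile of 31.5 and a width of 856 bp. The numbering of the H3K4me3 peaks was skipped near 50 of the 428 genes (11.7%), where an H3K4me3 peak may have been removed.

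PFK1, the alpha subunit of phosphofructokinase (YGR240C, chromosome VII, 970771 to 973734), had the highest H3K4me2 score among genes with H3K4me2 alone. Its H3K4me2 peak stood at percentile 98.4 and ran from 248 bp before to 1256 bp after the start codon. An H3K4me3 number was skipped at PFK1, and a set1 deletion H3K4me3 peak lay 1082 bp from its start codon, so PFK1 cannot be read as lacking H3K4me3. Of the 387 genes whose H3K4me2 peak met no H3K4me3 peak, 3 stood above percentile 25: PFK1 and the ORFs YIL059C and YIL060W, which were named after their values were seen.

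The other 9 of the 10 highest-ranked genes with H3K4me2 alone had a peak that met H3K4me3 elsewhere. At YJR112W-A (percentile 96.9) the H3K4me2 peak ran on to 1251 bp, past the ORF of 379 bp, and at GRX8, a glutaredoxin (72.4), it began 671 bp upstream, with an H3K4me3 number skipped nearby. At HNT2, a dinucleoside triphosphate hydrolase (88.9), and at YGR018C (91.0) it began only 281 and 319 bp after the start codon. At YBL100W-C (76.6) it ended 12 bp after the start codon. CBS1, a translational activator of a mitochondrial mRNA, IMP1, a peptidase of the mitochondrial inner membrane, and FMN1, riboflavin kinase, had H3K4me2 peaks that began 1686, 1283 and 1213 bp upstream. RCN1, a regulator of calcineurin, completed the group at percentile 68.6. All 9 peaks thus ran well past one end of the gene they were assigned to.

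An H3K4me3 peak lay within 500 bp upstream of 85 of the 428 genes with H3K4me2 alone (19.9%). At 64 of these the upstream neighbour was on the opposite strand and at 21 on the same strand. In a further 14 genes H3K4me3 lay within the ORF beyond 500 bp, and at 329 (76.9%) it lay in neither stretch. Most genes with H3K4me2 alone thus had no listed H3K4me3 peak in either stretch. DNA further upstream or past the end of the ORF was not searched, so H3K4me3 may lie close by there.

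Genes with H3K4me2 alone stood between the other classes in length and spacing. Their median ORF was 1068 bp, against 1335 bp for both marks and 1023 bp for neither, and the median distance to the upstream neighbour was 484 bp, against 380 and 613.5 bp. A gene known only by its systematic name was found in 16.6% of the class with H3K4me2 alone, in 5.53% of that with both marks and in 34.1% of that with neither.

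The share of genes with neither mark was higher towards chromosome ends, although 696 of the 979 lay 40 kb or more from an end. Within 20 kb lay 192 of the 979 (19.6%), against 0.54% of genes with both marks. Within 10 kb of the annotated end 102 of 111 genes had neither mark (91.9%) and 4 had both. From 10 to 20 kb, 77.6% had neither mark, from 20 to 40 kb 34.9%, and further inside 15.02%. The longest ORF with neither mark was HOB2 (YPR117W, chromosome XVI, 760025 to 767494), of 7470 bp. The next 5 were YRF1-3, YRF1-6, YRF1-7, YIL177C and YJL225C, helicase genes of the Y′ elements and related ORFs at chromosome ends, whose copies share sequence, so that reads may not have been placed there. Near 204 of the 979 genes with neither mark (20.8%) a peak number was skipped in at least 1 of the lists.

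Spacing and length also went with the classes. Both marks were listed at 86.4% of genes whose upstream neighbour lay on the opposite strand at 200 to 400 bp, and at 53.0% where that gap was 800 bp or more. With the neighbour on the same strand the shares were 81.6% at 200 to 400 bp, 45.0% at 800 bp or more and 54.5% under 200 bp. ORFs under 500 bp carried both marks in 50.2% of cases and ORFs of 2000 bp or more in 80.9%. By chromosome, the share with both marks ran from 61.0% on chromosome VI to 79.1% on chromosome XI.

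At genes with both marks, H3K4me2 ended further into the gene than H3K4me3. Edge differences are H3K4me2 minus H3K4me3, so a positive value means that H3K4me2 reached further, downstream or upstream. The median downstream edge was 582 bp into the ORF for H3K4me2 and 490 bp for H3K4me3, with a median difference of 83 bp (80 to 86, quartiles 44 and 138). H3K4me2 ended further downstream at 3520 of the 3707 genes (95%). The upstream edge lay at a median of 106 bp before the start codon for H3K4me2 and 88 bp for H3K4me3, with a smaller median difference of 18 bp (17 to 19). H3K4me2 began further upstream at 2895 genes (78.1%). The H3K4me3 peak thus lay inside the H3K4me2 peak at 77.6% of genes, and at 17.5% the H3K4me2 peak was shifted downstream, beginning and ending later. H3K4me2 lay inside H3K4me3 at 3.02% and was shifted upstream at 1.89%.

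Peaks that hold several start codons have edges set by neighbouring genes, so the next comparisons use the 3106 genes whose H3K4me2 and H3K4me3 peaks hold no other start codon (single-start genes). Their median differences were 83 bp downstream and 15 bp upstream. The arrangement of the peaks changed along the H3K4me3 ranking. In the lowest quartile of the H3K4me3 list (735 genes) the median downstream difference was 154 bp (147 to 161), and it was 101 bp, 67 bp and 41 bp (36 to 46) in the following score quartiles. The upstream difference was 41 bp, 21 bp, 8 bp and -5 bp (-7 to -4) in the same order. In the highest quartile H3K4me3 therefore began slightly further upstream than H3K4me2, while H3K4me2 still ended further downstream at 657 of 774 genes.

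Trimethylation lay inside dimethylation at 99.0% of genes in the lowest quartile by H3K4me3 score and at 32.6% in the highest. The downstream shift of H3K4me2 went the other way, with 0.68%, 2.70%, 18.8% and 52.7% of genes from the lowest to the highest quartile. The median edges in the highest quartile were 99 bp before and 658 bp after the start codon for H3K4me2, and 107 and 612 bp for H3K4me3. In the lowest quartile they were 83 and 506 bp for H3K4me2, and 36 and 337 bp for H3K4me3. Both edges of H3K4me3 thus lay further out at higher score. Score and edges come from the same peak calls, and whether peaks of higher score were wider for reasons of calling was not tested.

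**Figure D3:**
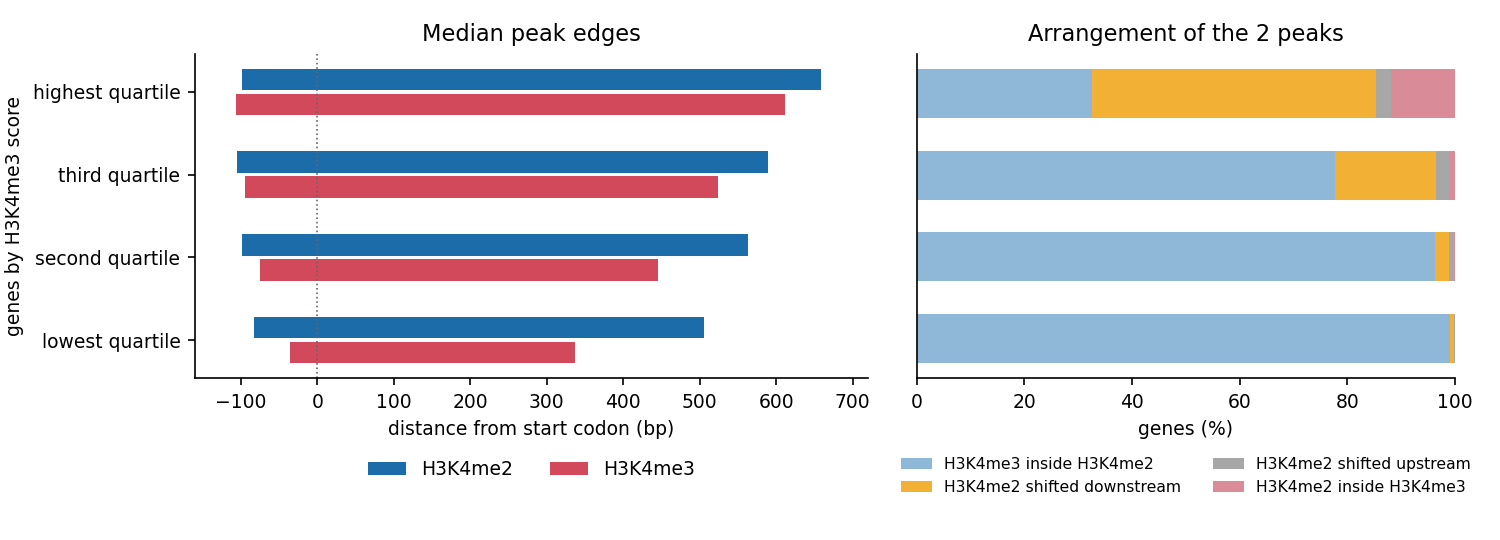
Genes whose peaks hold no other start codon are grouped by quartile of the H3K4me3 list by score. The left panel spans the median upstream to the median downstream edge of each mark in bp from the start codon, and the right panel gives the percentage of genes in each arrangement of the peaks. From the lowest to the highest quartile the share with H3K4me2 shifted downstream was 0.68%, 2.70%, 18.8% and 52.7%.

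The same ordering held along the H3K4me2 ranking. The downstream difference was 167, 105.5, 71.5 and 54 bp from the lowest to the highest quartile of the H3K4me2 list, and the upstream difference 47, 23, 10 and 1 bp. Across the 3106 genes the scores of H3K4me2 and H3K4me3 were correlated (Spearman's rho 0.85), and the downstream difference had a rho of -0.47 with the H3K4me2 score and -0.59 with the H3K4me3 score. These values describe genes of 1 pair of libraries and share the peak calls. Where the H3K4me2 percentile exceeded that of H3K4me3 by over 20 points (436 genes), the median differences were 97 bp downstream and 22 bp upstream. Where H3K4me3 exceeded H3K4me2 by as much (170 genes), they were 35.5 bp and -10 bp, and H3K4me2 was shifted downstream at 50% of genes.

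The authors had divided the H3K4me2 peaks into clusters, and the peak arrangement differed between them. In their cluster 1 the downstream difference was 41.5 bp, the upstream difference -6 bp and H3K4me2 was shifted downstream at 51.4% of 628 genes. In cluster 2 the values were 96 bp, 20 bp and 10.5% of 2478 genes. The median percentiles of H3K4me2 and H3K4me3 were 81.4 and 85.8 in cluster 1, against 48.1 and 40.7 in cluster 2. The clusters thus differed in score as well, and the comparison was not matched for it. The cluster 1 values lay near the 41 bp, -5 bp and 52.7% of the highest quartile by H3K4me3 score. Over all genes kept, both marks were listed at 721 of 723 genes of cluster 1 (99.7%) and at 2986 of 3412 of cluster 2 (87.5%). Genes in a cluster have H3K4me2 by construction, and over all genes with H3K4me2 the share with both marks was 89.6%. The sources used here do not say how the clusters were made.

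The 6 single-start genes with the highest summed percentiles mostly had peaks that ended close together, with SMY2 as the exception. At SMY2 (percentiles 99.5 for H3K4me2 and 99.3 for H3K4me3) the H3K4me2 peak ran from 161 bp before to 959 bp after the start codon, and that of H3K4me3 from 163 bp before to 871 bp after it, a downstream difference of 88 bp. MRPL4, a mitochondrial ribosomal protein, CDC24, the exchange factor of the Cdc42 GTPase, RPT1, a proteasome ATPase, and PGD1, a Mediator subunit, had downstream differences of 34, 30, 20 and 30 bp. At RPL35B, a cytosolic ribosomal protein, H3K4me3 ended 5 bp beyond H3K4me2. H3K4me3 began further upstream at all 6, by 2 bp at SMY2 and by 33 bp at RPT1.

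Among the single-start genes, the largest excess of H3K4me2 inside the gene was at VCX1, a vacuolar exchanger of protons and calcium (YDL128W, chromosome IV, 232652 to 233887). Its H3K4me2 peak ended 1312 bp after the start codon, past the ORF of 1236 bp, and its H3K4me3 peak at 356 bp. PCL9, a cyclin of the Pho85 kinase, had a downstream difference of 796 bp, with H3K4me2 at percentile 23.4 and H3K4me3 at 0.27, near the bottom of its list. POM33, a nuclear pore protein, PER1, a factor of GPI anchor remodelling, MDM31, a mitochondrial inner membrane protein, and YHP1, a homeobox repressor, followed with 655, 558, 507 and 484 bp. PER1 had an H3K4me2 peak that also began 721 bp upstream, while at the other 5 both marks began within 231 bp of the start codon.

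At the other end of the single-start genes, H3K4me3 ended beyond H3K4me2. The difference was -951 bp at MPT5, which encodes an RNA-binding protein of the Puf family. There the peaks assigned did not overlap: H3K4me2 ended 175 bp after the start codon and H3K4me3 began at 433 bp, under another H3K4me2 peak. ESF2, a factor of small ribosomal subunit assembly, had -166 bp, and SLM3, an enzyme of mitochondrial tRNA thiolation, -153 bp. PAB1, the poly(A)-binding protein, had -126 bp, with H3K4me2 ending at 1040 bp and H3K4me3 at 1166 bp. KRE2, a mannosyltransferase, and VTC4, a polyphosphate synthase, had -112 and -108 bp. ESF2, SLM3, PAB1, KRE2 and VTC4 stood above percentile 74 in both lists.

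**Figure D4:**
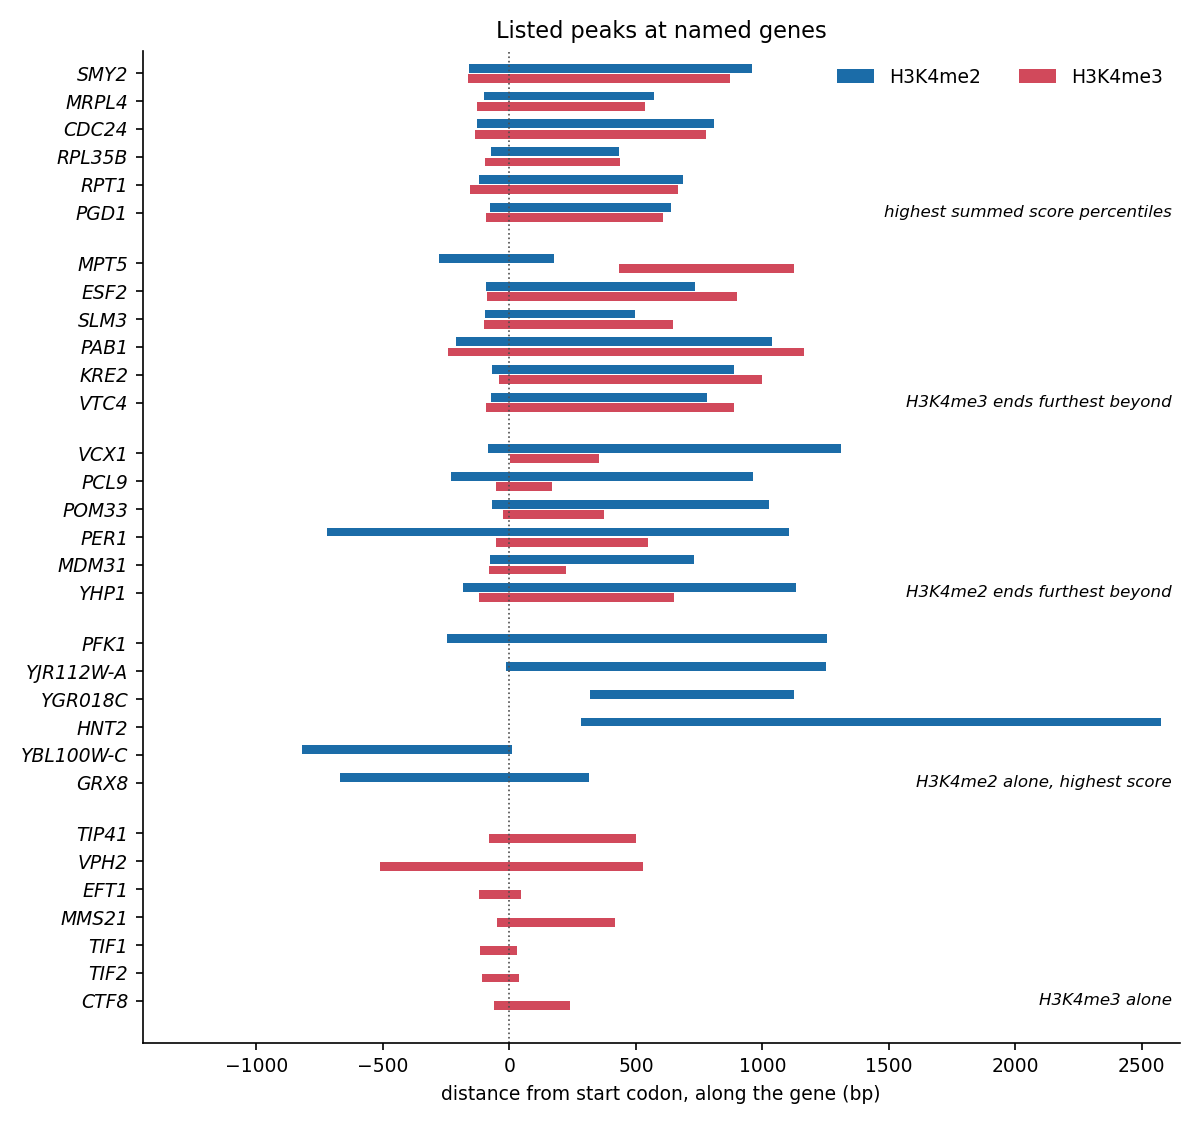
Bars show the listed H3K4me2 and H3K4me3 peaks at named genes, on an x axis of distance from the start codon in bp, read along the gene; genes are grouped by the rule that named them. At the genes with the highest summed percentiles the downstream edges differ by 34 bp or less, except at SMY2 (88 bp), H3K4me2 runs 956 bp further than H3K4me3 at VCX1, and genes with a single mark show 1 bar.

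Upstream of the start codon, the largest differences among the single-start genes were at CHD1, a chromatin remodeller (1044 bp), SIN4, a Mediator subunit (852 bp), MNT2, a mannosyltransferase (808 bp), and PRP3, a splicing factor (777 bp). At CHD1 the H3K4me2 peak began 1403 bp upstream within a gap of 1609 bp to the next gene, and H3K4me3 began at 359 bp. At SIN4 the H3K4me2 peak began 924 bp upstream, beyond the gap of 362 bp and over the neighbouring gene on the same strand. Among these genes H3K4me3 began furthest beyond H3K4me2 at SWI3, a subunit of the SWI/SNF remodeller (-205 bp), and at ARP7, a subunit shared by SWI/SNF and RSC (-197 bp). RPT3 of the proteasome (-57 bp) and RPS30A of the small ribosomal subunit (-52 bp) followed.

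Neighbouring genes that diverge from 1 intergenic region mostly shared their class. Of 1197 such pairs with both genes kept, 886 had the same class (74.0%): 765 pairs had both marks at both genes, 100 had neither at both and 21 had H3K4me2 alone at both. Both marks stood at 72.4% of all genes kept, so many unrelated genes would also share a class. The share for unrelated genes was not computed, and a single peak can mark both genes of a close pair. With the start codons under 300 bp apart 86.6% of pairs shared their class, and at 600 bp or more 57.3% did. Pairs with both marks at 1 gene and H3K4me2 alone at the other numbered 110, and those with both marks opposite neither 166. Of the 765 pairs with both marks at both genes, a single H3K4me2 peak spanned both windows in 212 (27.7%) and a single H3K4me3 peak in 131 (17.1%). Under 300 bp the shares were 53.3% for H3K4me2 and 37.7% for H3K4me3. H3K4me2 was joined where H3K4me3 was split at 95 pairs, and the reverse was seen at 14.

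Of the 8 COMPASS genes, which encode the complex that makes the marks, the 7 kept all had both (100%, 59.0 to 100). That interval holds the 72.4% of all genes kept. H3K4me2 ended further downstream at each of the 7, against 95% of all genes with both marks. SDC1, the gene of Cps25 itself, was left out because of a nearby set1 deletion peak, and in the lists it had H3K4me3 alone. The downstream difference was 178 bp at SET1, 160 bp at SWD1, 141 bp at SPP1, 120 bp at BRE2, 90 bp at SWD3 and 46 bp at SWD2, and 828 bp at SHG1, where the H3K4me2 peak held 3 start codons. Their median percentile was 52.8 for H3K4me2 and 40.4 for H3K4me3.

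Genes of the Paf1 complex and of H2B ubiquitylation, which act before COMPASS, had both marks in 8 of 8 cases (100%, 63.1 to 100). The 72.4% of all genes kept lies within that interval. Their downstream difference had a median of 21.5 bp, against 83 bp over all genes with both marks, and their upstream difference one of -11 bp, against 18 bp. H3K4me2 began further upstream at 0 of the 8. BRE1, the ubiquitin ligase for H2B, had a downstream difference of 54 bp, LGE1, its partner, 34 bp, and CTR9 of the Paf1 complex 5 bp. Their median percentile was 75.4 for H3K4me2 and 88.8 for H3K4me3.

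A further list held 15 kept genes for readers of H3K4 methylation, partner subunits of their complexes and the H3K4 demethylase. Of these 14 had both marks (93.3%, 68.1 to 99.8), an interval that holds the 72.4% of all genes kept. The remaining 1 had neither (6.67%, against 19.1%). The exception was JHD2, the H3K4 demethylase (YJR119C, chromosome X, 644304 to 646490). SNT1 and SIF2 of the Set3 complex had downstream differences of 50 and 47 bp, and YNG2 of NuA4 27 bp. The median over the 14 genes was 48.5 bp downstream and -2 bp upstream, with median percentiles of 81.2 for H3K4me2 and 80.6 for H3K4me3.

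Both marks were listed at 50 of 50 ribosome biogenesis genes kept, 27 of 27 proteasome genes, 68 of 68 mitochondrial ribosomal protein genes and 14 of 14 genes of RNA polymerases I and III, against 72.4% of all genes kept. The median downstream differences were 48, 20, 61 and 54 bp in that order, all below the 83 bp of all genes with both marks. In the same order the median H3K4me3 percentiles were 77.6, 96.1, 78.5 and 70.7, against 52.2, so the comparison was not matched for score. Single-start genes in the third and highest quartiles by H3K4me3 score had median downstream differences of 67 and 41 bp. Genes of Mediator, RNA polymerase II and its general factors had both marks in 39 of 40 cases, with 69 bp, and SRB2 had neither. Splicing genes had both in 53 of 54 cases, with 61 bp. The exception was SMX2, a core snRNP protein, with H3K4me2 alone at percentile 55.7 and a peak that met H3K4me3 elsewhere.

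Proteasome and cytosolic ribosomal protein genes had the smallest median downstream differences of the 21 gene lists. At the proteasome genes H3K4me2 stood at a median percentile of 83.2 and H3K4me3 at 96.1, and H3K4me2 began further upstream at 4 of 27, against 78.1% of all genes with both marks. The median upstream difference was -23 bp, and H3K4me2 was shifted downstream at 18 of the 27. PUP1 of the catalytic core and RPN6 of the lid had downstream differences of 38 and -9 bp and upstream differences of -34 and -37 bp. Over the 23 proteasome genes that were single-start the median differences were 20 bp downstream and -21 bp upstream, against 41 and -5 bp over the single-start genes in the highest quartile by H3K4me3 score. The median H3K4me3 percentile was 96.1 at these proteasome genes and 87.5 in that quartile, so the comparison was not matched for score.

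Of 137 cytosolic ribosomal protein genes 119 were left out near set1 deletion peaks, so the 18 kept are a small remainder, and many have near-identical copies that make the source of reads uncertain. Both marks were listed at 15 (83.3%, 58.6 to 96.4), an interval that holds the 72.4% of all genes kept. RPL1A, RPL4A and RPL4B had neither (16.7%, against 19.1% of all genes kept). Over the 15 genes the median downstream edge was 706 bp for H3K4me2 and 709 bp for H3K4me3, and the median difference per gene was -3 bp downstream and -40 bp upstream. H3K4me2 ended further downstream at 6 of 15, against 95% of all genes with both marks. It lay inside the H3K4me3 peak at 9 of the 15, with median percentiles of 49.5 for H3K4me2 and 90.9 for H3K4me3. RPS10B had differences of 20 bp downstream and -59 bp upstream, and RPL14B 2 and -32 bp.

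Respiration and TCA cycle genes had both marks at 40 of 43 (93.02%, against 72.4% of all genes kept) and H3K4me2 alone at the other 3. The share with H3K4me2 alone, 6.98%, lay near the 8.36% of all genes kept. ATP1 and ATP2, subunits of the ATP synthase, had both marks above percentile 87 in each list. LSC2, a subunit of succinyl-CoA ligase, QCR10 of complex III and CYC1, the main cytochrome c, had H3K4me2 alone at percentiles 11.5, 8.56 and 0.18. Near CYC1 an H3K4me3 number was skipped, so an H3K4me3 peak may have been removed there. Amino acid biosynthesis genes had both marks at 42 of 51 (82.4%, against 72.4% of all genes kept) and H3K4me2 alone at 7 (13.7%, against 8.36%). Neither was listed at 2 (3.92%, against 19.1%), which were ARG1 and ARG3 of arginine synthesis. HIS6, ARG7 and LYS20 led the 7 with H3K4me2 alone, at percentiles 17.9, 16.7 and 11.4.

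Genes for the use of carbon sources other than glucose mostly carried neither mark in this glucose medium. Of 33 kept, 29 had neither, against 19.1% of all genes kept, and GUT2, a mitochondrial glycerol-3-phosphate dehydrogenase, had both. Its H3K4me2 peak stood at percentile 16.4 and its H3K4me3 peak at 1.22. FBP1 of gluconeogenesis, ICL1 of the glyoxylate cycle and GUT1, glycerol kinase, had H3K4me2 alone at percentiles 31.5, 8.72 and 3.62. The FBP1 peak began 424 bp after the start codon and met H3K4me3 elsewhere. ACS1, ADH2, PCK1, SUC2 and 5 GAL genes were among those with neither.

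Meiosis and sporulation genes had neither mark at 47 of 49, against 19.1% of all genes kept, and REC107 and MER1 had both. The MER1 peaks began 431 bp (H3K4me2) and 479 bp (H3K4me3) after the start codon, and the REC107 H3K4me2 peak began 2086 bp upstream. Of 47 genes with names of the PAU, COS, FLO, DAN and TIR families 45 had neither mark, again against 19.1%. COS9 and COS10 had H3K4me2 alone at percentiles 6.19 and 3.37, with an H3K4me3 number skipped near COS9. The 45 include COS111, which lies 182311 bp from the chromosome end in an ORF of 2775 bp, against 1146 bp at COS1. Its name alone does not make it a subtelomeric member. Copies of these families share sequence.

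Nitrogen catabolite genes had both marks at 12 of 30 (40%, against 72.4% of all genes kept), H3K4me2 alone at 3 (10%, against 8.36%) and neither at 15 (50%, against 19.1%). The activator genes GLN3 and DAL81 and the arginine permease gene CAN1 had both, GDH2, MEP2 and UGA1 had H3K4me2 alone, and DAL1, DAL2 and DAL3 had neither. Their median downstream difference was 123.5 bp, against 83 bp over all genes with both marks, and the median percentile was 45.7 for H3K4me2 and 30.01 for H3K4me3.

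Heat shock and general stress genes had H3K4me2 alone at 8 of 37 (21.6%), against 8.36% of all genes kept, and both marks at 20 (54.1%, against 72.4%). Neither was listed at 9 (24.3%, 11.8 to 41.2), an interval that holds the 19.1% of all genes kept. HSP82, the inducible Hsp90, had H3K4me2 alone at percentile 14.8, while HSC82, its constitutive copy, had both marks. MSN4, a stress activator, had H3K4me2 alone at percentile 8.42, and GPX2, a peroxidase, at 8.29. The others with H3K4me2 alone were GLC3, GPX1, GSY2, PGM2 and SSA4. Near MSN4, GLC3 and SSA4 an H3K4me3 number was skipped, so these genes cannot be read as lacking H3K4me3. HSF1, the heat shock activator, and YDJ1 and SOD2 had both marks at percentile 78.7 or above in each list, and CTT1, DDR2 and GAC1 had neither. Near CTT1 a number was skipped in both lists, so its marks may have been removed. HSP82 and HSC82 share sequence, so reads within these ORFs may not have been assigned with certainty.

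**Figure D5:**
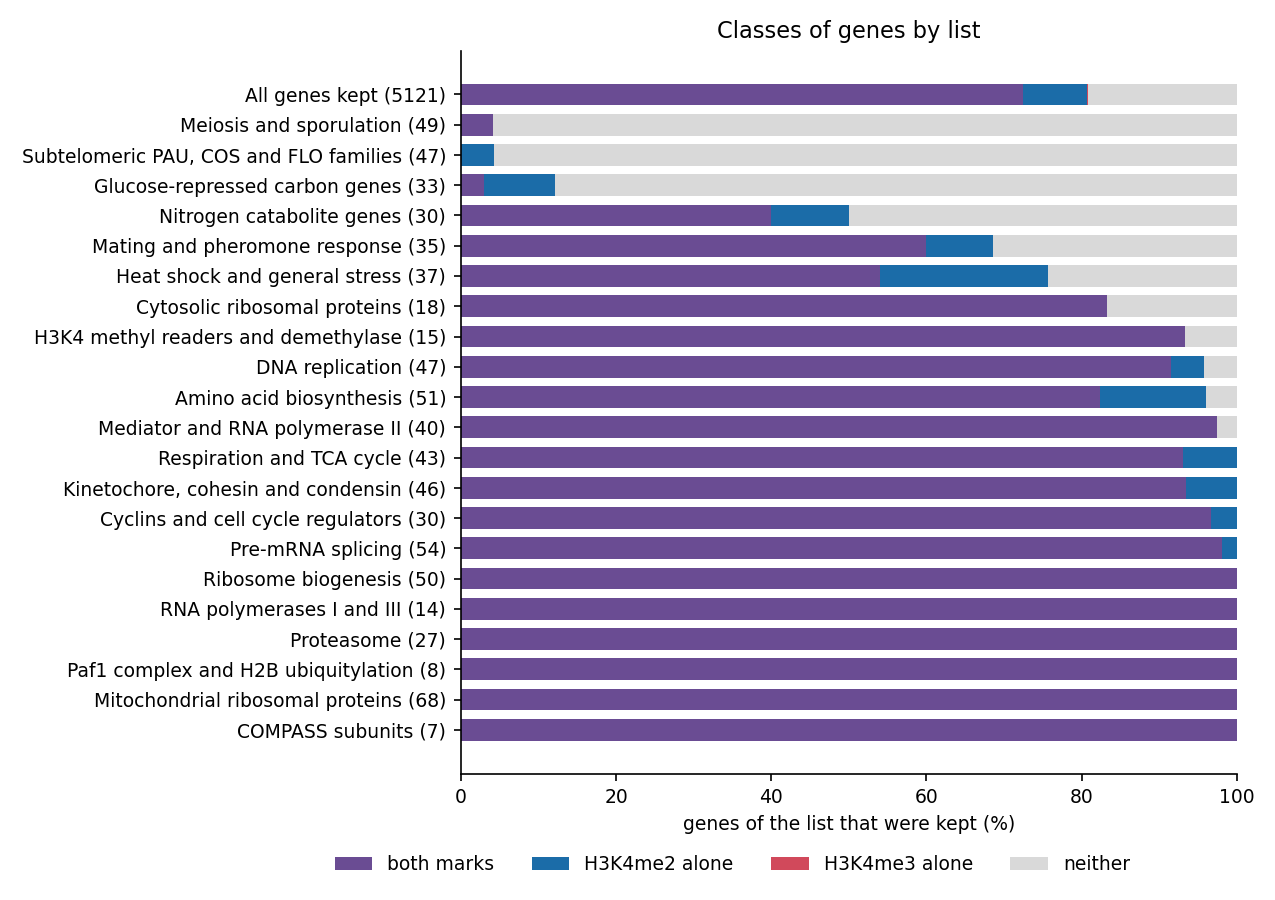
Each bar is a list of genes, with the number kept in parentheses, and the x axis gives the percentage of these genes in each class. Meiosis genes (47 of 49), the list labelled as subtelomeric families (45 of 47, with COS111 far from a chromosome end) and glucose-repressed genes (29 of 33) were mostly without either mark. Ribosome biogenesis, proteasome and mitochondrial ribosomal protein genes had both marks throughout.

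Mating and pheromone response genes had both marks at 21 of 35 (60%, against 72.4% of all genes kept) and H3K4me2 alone at 3. Neither was listed at 11 (31.4%, 16.9 to 49.3), an interval that holds the 19.1% of all genes kept. The share with H3K4me2 alone, 8.57%, lay near the 8.36% of all genes kept. STE5, the scaffold of the pheromone MAP kinase cascade, STE20, a kinase that activates it, and STE24, a protease that processes the a-factor precursor, had both, with downstream differences of 29, 27 and 29 bp. The agglutinin genes AGA1, AGA2 and FIG2 had H3K4me2 alone at percentiles 5.28, 1.80 and 13.02, and FIG1, FUS2 and MFA1 had neither.

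Cell cycle genes carried both marks at most members, as did 72.4% of all genes kept. H3K4me2 alone stood at 3.33% of cyclin and regulator genes, 4.26% of replication genes and 6.52% of kinetochore, cohesin and condensin genes. Over all genes kept its share was 8.36%. Both marks were listed at 29 of 30 cyclin and regulator genes, and SWI4, a subunit of the G1 transcription factor SBF, had H3K4me2 alone at percentile 16.5. Of 47 replication genes 43 had both marks, PSF3 and RNR2 had H3K4me2 alone, with an H3K4me3 number skipped near RNR2, and RNR1 and RNR3, large subunits of ribonucleotide reductase, had neither. At all 43 the H3K4me3 peak lay inside the H3K4me2 peak, against 77.6% of all genes with both marks, with a median downstream difference of 92 bp and median percentiles of 49.4 for H3K4me2 and 41.1 for H3K4me3. Kinetochore, cohesin and condensin genes had both marks at 43 of 46, with 86 bp, and CHL4, NKP2 and SCC2 had H3K4me2 alone at percentiles 5.80, 1.18 and 12.998.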

How the data were processed

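The submitters' processing notes name Bowtie 1.1.2, MACS2 2.1.1 and the build sacCer3, without settings; whether a control was used is not given here. For each group 1 peak list was used, from replicate 1, and the replicate 2 libraries of both marks were not analysed here. The authors deposited a score per peak whose scale is not stated. Per the names of the wild-type lists, set1 deletion peaks had been taken out, and a number missing from the running peak names near a gene was counted as skipped. The H3K4me2 list also holds, per the file headers, the distance to the nearest start and a cluster number.

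ORFs were those of assembly R64 in a RefSeq gene table, with strand read from the systematic name. Of 4018 distances the authors deposited, 99.9% were met within 2 bp. A gene's peak was the one with the largest overlap of its first 500 bp, and edges were measured from the start codon. Gene spans include introns; introns, promoter motifs and sequences were not used here. The members and the 21 gene lists were chosen with earlier results of these data known, and ARG5,6 and DUR1,2 were not found in the table. Apart from those said to be chosen after their values were seen, genes were named by rule: every gene with H3K4me3 alone, the 10 highest-scoring with H3K4me2 alone, the extremes of the edge differences and summed percentiles, the longest 6 with neither mark, and up to 3 per class in each list. Further members complete small counts or pairs and were also named after their values were seen.

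Scripts used Python 3.11.15, numpy 2.4.6, pandas 2.3.3, scipy 1.17.1 and matplotlib 3.10.9. Counts of marked genes equalled those of bedtools 2.31.1 (4135 for H3K4me2 and 3714 for H3K4me3). On simulated lists 100% of 460 classes and of 242 edge differences were recovered. Only long, isolated genes with at most a single peak per mark were simulated, so this checks the arithmetic alone. Peaks over several start codons, short ORFs, close neighbours and removed peaks were not simulated. Alternatives are given in the closing section.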

Additional observations from a re-analysis of the deposited data

How the results depend on the processing

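No paired analysis was possible because each antibody had 1 list and no result came from a test. Of the main values recomputed, 93 stayed close (a count within 1.5 times, a share or median within its interval) and 24 moved. None of the median edge differences recomputed changed sign. Counts and shares were not checked for direction, and the upstream difference by score quartile was not recomputed. With the upper 50% of peaks by score, both marks were listed at 1782 genes, H3K4me3 alone at 167 and neither at 2706. The downstream difference was then 58 bp, the upstream one 4 bp, and H3K4me2 ended further at 90.9%. By H3K4me3 score quartile of that setting the downstream difference was 34 bp in the highest and 72 bp in the lowest, and the shift downstream 64.4% and 9.27%. With as many H3K4me2 as H3K4me3 peaks, H3K4me2 alone stood at 257 genes. Merging peaks within 200 bp gave an upstream difference of 28 bp. Requiring 50% of the window covered gave 79 bp downstream, 16 bp upstream and 138 bp downstream in the lowest quartile. With no genes left out, H3K4me3 alone stood at 151 genes. With the 2492 genes whose upstream neighbour is on the same strand, fewer by construction, 1750 genes had both marks, 211 H3K4me2 alone, 4 H3K4me3 alone and 527 neither, the upstream difference was 15 bp and the highest quartile was shifted in 56.6%. Added after seeing the data, a set1 deletion window ending with the ORF gave 16 genes with H3K4me3 alone, and peaks with a single start codon 15 bp upstream. The causes were not tested. Of the other values, 169 stayed close and 94 moved: 39 higher and 17 lower with the upper 50% of peaks, 27 higher with no genes left out. Promoter motifs by class were not run. The small counts, 1 library per mark, unknown depth and the removal of set1 deletion peaks limit every value.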
